A study of Mus musculus with 12 samples.

Results

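The genes described here are 7 members of the machinery that senses foreign or misplaced nucleic acid in the cell and clears it: Mavs, Tbk1, Irf3, Ifih1, Samhd1, Adar and Trex1. They were chosen by symbol from the 25162 genes of the deposited table, with earlier results of these data known, and all 7 had a line there. The series measured polyadenylated RNA of mouse oocytes at 3 stages, labelled NGO, GO and FGO, in this field the usual short names of oocytes before, during and after growth. The control carries the floxed gene (Rnaseh1 fl/fl in the table, WT in the labels) and the other genotype lacks Rnaseh1 in the oocyte (oo-/- in the table, KO in the labels). The labels name 12 samples, 2 per genotype and stage, of 10 oocytes each. The table has 1 column per genotype and stage, so no value below has a replicate, an SD or a p-value. The sources used here give no strain, age or Cre driver.

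In this pathway Ifih1 (the sensor MDA5) and its relative RIG-I bind double-stranded RNA in the cytosol, and signal through Mavs, an adaptor on the outer mitochondrial membrane. Mavs recruits the kinase Tbk1, which phosphorylates the transcription factor Irf3, and Irf3 then enters the nucleus and switches on interferon genes. The DNA sensor cGAS reaches Tbk1 and Irf3 by another adaptor, STING. Clearance enzymes keep the sensors quiet. Trex1 degrades DNA in the cytosol, Samhd1 breaks down deoxynucleotides, and Adar converts adenosine to inosine in double-stranded RNA so that MDA5 does not bind it. RNase H1, the enzyme deleted here, removes RNA that is paired with DNA.

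Values are FPKM, a count of sequenced fragments corrected for transcript length and library size, that the authors adjusted to a spike-in of 100 pg ERCC RNA, and levels of different genes can be set side by side because they are per length. The read depth is unknown. A gene was compared between columns where its mean over the 6 columns was at least 1 FPKM, which held for 10110 genes and for 5 of the 7. Differences are on the log2(FPKM + 1) scale, which understates the change of low genes, and one of 1 or more, 2-fold, is called. "After rescaling" means that a common factor was taken out of each column, namely the median over genes of its ratio to the gene's geometric mean. As deposited, the median compared gene was 0.72 higher in KO than in WT at FGO, and after rescaling 0.02 higher. Since the spike-in scale and a technical column factor cannot be told apart here, both versions are given. Rnaseh1 itself had KO to WT ratios of 0.108 at NGO, 0.112 at GO and 0.276 at FGO.

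The columns were of oocytes by their markers. All 10 oocyte markers (among them Zp3, Gdf9 and Figla) were at 1 FPKM or more in every column, and their sum ranged from 6041 FPKM in KO NGO to 18017 in KO FGO. The 10 granulosa cell markers summed to between 2.04 and 14.5 FPKM in the WT columns. The KO columns summed to 4.00, 4.70 and 40.5 FPKM in the same order of stages, and in KO FGO 7 of the 10 reached 1 FPKM against 4 in WT FGO. Inha was at 1.17 FPKM in FGO of WT and 9.32 of KO, Gja1 at 0.965 and 6.96, Hsd17b1 at 0.845 and 3.71, Cyp19a1 at 6.16 and 10.4, and Kitl at 1.59 and 3.19. Nr5a2 was at 2.24 and 4.52 FPKM, Fshr at 0.756 and 1.70, and Inhba at 0.742 and 0.453. The remaining markers, Amh and Foxl2, were at 0.0206 and 0.282 FPKM and at 0.0130 and 0. The 10 immune markers summed to between 0.560 and 4.17 FPKM over the columns, and Adgre1, Lyz2, Itgam and Tyrobp were listed at 0 in each. The part of granulosa RNA in the values below was not tested, and in samples of pooled oocytes fewer cells of a type and less RNA per cell cannot be told apart.

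Sequences just before and after the start of 5 of the genes are shown. Of these, Mavs, Irf3 and Tbk1 stood at least 2-fold higher in KO at FGO as deposited, as did 25.8% of all compared genes. Samhd1 stayed under 2-fold, and Ifih1 was almost undetected. Adar was also at least 2-fold higher at FGO as deposited (1.26), but its 3 listed starts are not shown. Each sequence shown holds 250 bases before and 50 bases after the start, 5′ to 3′ on the gene's own strand, from RefSeq on GRCm38.p6. Capitals mark the GC box (GGGCGG or its reverse complement), the CCAAT box (CCAAT or its reverse complement) and the core of the interferon-stimulated response element, the site of interferon-activated factors (GAAA, any pair of bases and GAAA, or the reverse complement).
Mavs promoter (chr2:131233813-131234112, plus strand): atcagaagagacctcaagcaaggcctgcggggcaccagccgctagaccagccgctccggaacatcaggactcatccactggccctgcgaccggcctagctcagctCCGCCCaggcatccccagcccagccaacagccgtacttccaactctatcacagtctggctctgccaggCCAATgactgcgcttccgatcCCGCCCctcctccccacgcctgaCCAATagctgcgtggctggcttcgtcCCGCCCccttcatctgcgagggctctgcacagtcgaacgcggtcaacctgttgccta
Irf3 promoter (chr7:44997398-44997697, plus strand): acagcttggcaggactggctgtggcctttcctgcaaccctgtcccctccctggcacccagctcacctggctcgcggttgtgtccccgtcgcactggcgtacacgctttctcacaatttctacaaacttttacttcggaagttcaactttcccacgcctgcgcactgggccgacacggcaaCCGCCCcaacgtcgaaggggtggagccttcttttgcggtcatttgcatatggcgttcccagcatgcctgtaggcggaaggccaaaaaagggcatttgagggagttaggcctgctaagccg
Tbk1 promoter (chr10:121586745-121587044, minus strand): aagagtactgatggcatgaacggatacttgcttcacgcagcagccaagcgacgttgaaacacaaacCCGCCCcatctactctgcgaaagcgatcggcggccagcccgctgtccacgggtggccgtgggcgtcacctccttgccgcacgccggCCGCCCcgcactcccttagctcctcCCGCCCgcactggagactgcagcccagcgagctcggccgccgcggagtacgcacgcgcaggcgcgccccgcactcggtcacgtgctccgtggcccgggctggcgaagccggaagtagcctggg
Samhd1 promoter (chr2:157135047-157135346, minus strand): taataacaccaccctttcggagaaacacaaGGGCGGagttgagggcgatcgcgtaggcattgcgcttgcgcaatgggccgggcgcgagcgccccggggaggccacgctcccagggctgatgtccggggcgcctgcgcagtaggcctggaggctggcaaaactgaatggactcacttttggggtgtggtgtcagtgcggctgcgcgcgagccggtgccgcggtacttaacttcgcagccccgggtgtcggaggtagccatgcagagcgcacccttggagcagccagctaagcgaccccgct
Ifih1 promoter (chr2:62646206-62646505, minus strand): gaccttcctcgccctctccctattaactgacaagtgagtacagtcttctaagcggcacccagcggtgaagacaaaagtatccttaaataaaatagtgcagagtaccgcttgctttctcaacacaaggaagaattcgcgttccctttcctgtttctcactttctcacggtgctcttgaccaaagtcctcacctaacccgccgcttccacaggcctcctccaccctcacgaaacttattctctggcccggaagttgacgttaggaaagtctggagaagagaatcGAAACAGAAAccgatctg

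As this exact string, the core of the interferon element was found once, in the Ifih1 sequence, where it began 32 bases after the start. Other spacings of its parts were not searched. Start 3 of Adar, not shown, holds GAAACGAAA, a closer spacing that the string does not match. The same stretch holds GAAAGTGAAC, which has the searched spacing and differs from the string in its last base only. Of all 32851 mouse promoters of this length 3.44% hold the exact string, and of the 10402 promoters of compared genes 2.82%. Mavs held 3 GC boxes, at 145, 56 and 7 bases before the start, and 2 CCAAT boxes. Tbk1 also held 3 GC boxes, and Irf3 and Samhd1 held 1 each. A GC box was present for 6 of the 7 genes, all but Ifih1, when each of the 10 starts listed for them was searched. Start 1 of Adar and start 1 of Trex1 held none. This count is per gene, over any of its starts, whereas the shares that follow are per promoter. Among all promoters 35.7% hold a GC box and 37.4% a CCAAT box, and among those of compared genes 61.8% and 39.3%. The TATA box (TATAAA, 13.6% of all promoters) and the element bound by the oocyte factor NOBOX (TAATTG, 8.0%) were found at none of the 10 starts. These motifs did not overlap one another in the sequences shown. RefSeq lists 3 starts for Adar and 2 for Trex1, and the values do not say which were used.

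The double-stranded RNA sensor Ifih1 was hardly measured in these oocytes. It lies on chromosome 2 from 62595798 to 62646255 (mm10) and was listed at 0 FPKM in each WT column and in KO NGO and KO GO. KO FGO held 0.0466 FPKM. No difference is given for it, because an entry of 0 can also be a failed estimate. Its relative RIG-I (Ddx58 in the table) was detected in each column, at 0.588, 3.57 and 8.32 FPKM in WT NGO, GO and FGO and at 0.322, 2.61 and 16.9 in KO. The Ddx58 differences were -0.26, -0.34 and 0.94, and after rescaling -0.32, -0.27 and 0.20. Dhx58, the third gene of this family and a regulator of the other two, stayed at or below 0.126 FPKM. Of the RIG-I family, then, Ddx58 alone was above 1 FPKM in any column.

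Mavs, the adaptor that these sensors use, stood furthest from the control among the compared genes of the set at NGO, GO and FGO, on the positive side. It lies on chromosome 2 from 131234063 to 131248025. WT held 2.82 FPKM at NGO, 9.94 at GO and 5.17 at FGO, and KO held 3.29, 16.5 and 16.1. The KO value was thus above the WT value at each stage. The log2 differences were 0.17, 0.68 and 1.47, and after rescaling 0.35, 0.73 and 0.71. The deposited difference grew by 0.79 from GO to FGO, close to the median of 0.80 over all compared genes, and after rescaling it changed by -0.02. After rescaling, the GO difference was larger than those of all but 422 of the 10110 genes, and the FGO difference than those of all but 542. Between GO and FGO the WT level was lower at the later stage, with an FGO to GO ratio of 0.520, while the KO ratio was 0.975. After rescaling these ratios were 0.513 and 0.528, so the lower Mavs level of FGO relative to other genes was seen in both genotypes.

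Tbk1, the kinase downstream of Mavs and STING, lies on chromosome 10 from 121546455 to 121586787. Its level was 3.40, 8.50 and 7.21 FPKM in WT NGO, GO and FGO and 3.30, 10.2 and 17.6 in KO. The NGO values lay close together, and the KO FGO value was 2.44 times that of WT FGO. On the log2 scale the differences were -0.04, 0.24 and 1.18, and after rescaling 0.12, 0.30 and 0.43. The related kinase Ikbke was low, with its highest value of 1.22 FPKM in KO GO and 0.0376 in WT FGO.

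Irf3, the transcription factor that Tbk1 activates, had the largest difference between GO and FGO in WT among the 5 compared genes. It lies on chromosome 7 from 44997648 to 45002848. The WT columns held 3.39 FPKM at NGO, 10.3 at GO and 4.17 at FGO, and the KO columns 3.68, 10.2 and 12.2. As deposited, the genotypes were thus nearly level until GO and apart at FGO, where KO was 2.94 times WT. The NGO difference was 0.09 on the log2 scale, and 0.26 after rescaling. The WT step from GO to FGO was -1.13, and -1.10 after rescaling, and Irf3 was the only one of the 5 genes called lower in that step. Genes called lower in the WT step made up 9.22% of those compared, and 8.33% after rescaling. In KO the same step was 0.24 as deposited and -0.54 after rescaling, so its direction in KO depends on the scale. The difference between genotypes shifted from -0.01 at GO to 1.36 at FGO. After rescaling the values were 0.06 and 0.61, a shift of 0.55 that 991 of the compared genes exceeded. Bcl2l12, on the other strand, shares 88 of the 3442 exonic bases of Irf3 in GENCODE M21, and the libraries were unstranded. It was at 16.5 FPKM in FGO of WT and 19.8 of KO, a log2 difference of 0.25, and -0.48 after rescaling. Irf7, the interferon-induced relative of Irf3, did not exceed 0.0177 FPKM in any column.

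**Figure D1:**
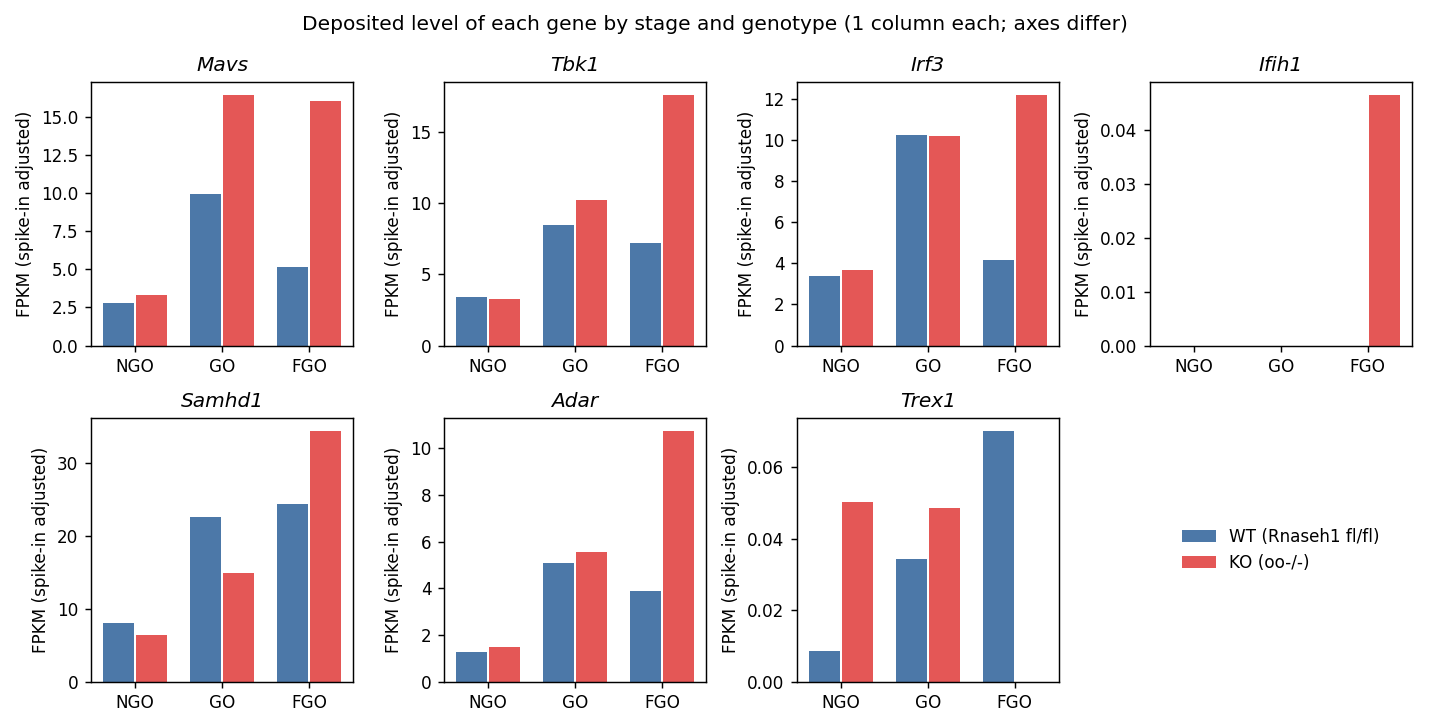
Spike-in adjusted FPKM of each of the 7 genes (vertical axes, which differ between panels and start at 0) at NGO, GO and FGO, with WT in blue and KO in red; each bar is 1 deposited column and carries no error. Mavs, Tbk1, Irf3 and Adar show WT FGO bars between 3.90 and 7.21 FPKM and KO FGO bars between 10.8 and 17.6, whereas Ifih1 and Trex1 stay under 0.1 FPKM.

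Among the clearance enzymes, Samhd1 was the most abundant gene of the set in 5 of the 6 columns and the only compared one whose difference lay below that of the median gene at each stage. It lies on chromosome 2 from 157097533 to 157135265. WT held 8.06, 22.6 and 24.4 FPKM at NGO, GO and FGO, and KO held 6.37, 14.9 and 34.5. KO was therefore lower at NGO and GO and higher at FGO as deposited. The log2 differences were -0.30, -0.56 and 0.48. After rescaling they were -0.15, -0.49 and -0.28, below 0 at each stage, so that at FGO the direction depends on the scale. At GO the rescaled value was smaller than those of 8756 of the 10110 genes.

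Adar, the RNA-editing enzyme, lies on chromosome 3 from 89715022 to 89753446. Its FPKM was 1.28, 5.09 and 3.90 in WT and 1.49, 5.55 and 10.8 in KO at NGO, GO and FGO. It was the lowest of the 5 compared genes in every column, and KO was above WT at each stage. The differences were 0.13, 0.10 and 1.26 on the log2 scale, and 0.30, 0.16 and 0.53 after rescaling. Chrnb2, on the other strand, shares 1365 of its 8118 exonic bases, and was at or below 0.0614 FPKM in each column. The second editing enzyme Adarb1 did not exceed 0.683 FPKM, reached in KO FGO.

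Trex1, the cytosolic DNA exonuclease, was listed at 0.00863, 0.0344 and 0.0701 FPKM in WT and at 0.0503, 0.0485 and 4.35e-07 in KO. This low level is uncertain. All 1147 exonic bases of Trex1 (chromosome 9, 109057933 to 109059734) also belong to exons of Atrip, a gene of the ATR checkpoint on the same strand, so reads from the stretch can be given to either gene. Atrip was at 0.880, 2.03 and 1.52 FPKM in WT and at 1.17, 4.12 and 4.73 in KO. Its log2 differences were 0.21, 0.76 and 1.19, and after rescaling 0.41, 0.76 and 0.52. The other exonuclease of this family, Trex2, stayed at or below 0.282 FPKM. None of the 6 other genes of the set had a near-identical copy elsewhere among GENCODE M21 transcripts, at 95% identity over at least 50% of the longest transcript.

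Set together at FGO, 4 of the 5 compared genes (Mavs, Irf3, Adar and Tbk1) were at least 2-fold higher in KO as deposited, against 25.8% of all compared genes. After rescaling 0 of the 5 were called higher, against 1.68%, and 0 lower, against 0.94%. The median of the 5 was 1.26 as deposited beside 0.72 over all compared genes, and 0.53 beside 0.02 after rescaling. The same 4 genes lay above the median gene and Samhd1 below it at each stage, with values as deposited and after rescaling. At NGO 0 of the 5 were called in either direction, against 0.356% of all genes, and the median was 0.09 (0.26 after rescaling). At GO 0 of the 5 were called, against 2.98%, and the median was 0.10 (0.16 after rescaling). The 3 stages have no samples in common, but the 5 genes of a column share its library and scale. Because the set was chosen with earlier results of these data known, its distance from all genes is a description only.

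**Figure D2:**
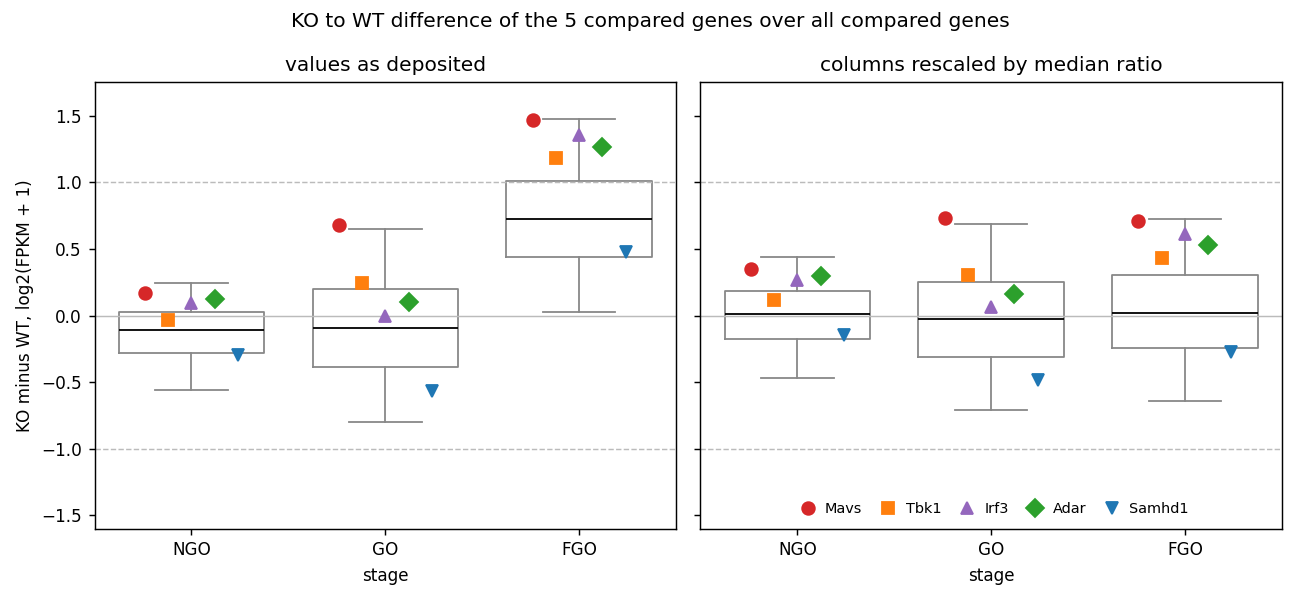
KO minus WT difference in log2(FPKM + 1) at each stage, as deposited (left) and after rescaling (right); boxes show the quartiles and median of the 10110 compared genes, whiskers their 5th and 95th percentiles, dashed lines 2-fold. Mavs, Tbk1, Irf3 and Adar sit above the median line at each stage and Samhd1 below it; at FGO as deposited the first 4 lie between 1.18 and 1.47, and after rescaling between 0.43 and 0.71.

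From NGO to GO all 5 genes were called higher in both genotypes as deposited, by 1.11 to 1.52 in WT and by 1.11 to 2.03 in KO. These calls say little about the genes themselves, since 54.8% of all genes were called higher in WT and 57.6% in KO, and after rescaling 0 of the 5 were, against 6.06% and 5.37%. On that scale Adar had the largest WT step (0.50) and Mavs the largest KO step (0.81). From GO to FGO, 0 of the 5 were called higher in WT, where 6.5% of all genes were. Only Samhd1 was called higher in KO, by 1.15, where 39.0% of all genes were. After rescaling its KO step was 0.30, and 0 of the 5 were called higher, against 6.42%.

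Ratios between genes of 1 column do not depend on how the column was scaled. The Mavs to Samhd1 ratio was 0.349, 0.440 and 0.212 in WT NGO, GO and FGO and 0.516, 1.10 and 0.466 in KO. At GO the ratio in KO was thus 2.50 times that in WT, and KO GO was the only column in which Mavs (16.5 FPKM) stood above Samhd1 (14.9 FPKM). For Irf3 the ratio to Samhd1 was 0.421, 0.455 and 0.171 in WT and 0.577, 0.684 and 0.355 in KO. For Tbk1 it was 0.423, 0.376 and 0.295 in WT and 0.518, 0.684 and 0.511 in KO. Adar had 0.159, 0.226 and 0.160 in WT and 0.233, 0.372 and 0.312 in KO. Each of these ratios was higher in KO at each stage, by 1.23 to 2.50 times. That direction was fixed by the choice of denominator, because Samhd1 had the lowest KO to WT ratio of the compared set genes at each stage. Among ratios without Samhd1, Mavs to Irf3 in KO was 1.08, 1.67 and 1.06 times that in WT, at GO larger than the corresponding value for Irf3 to Samhd1. The Mavs to Tbk1 ratio was 1.21, 1.38 and 1.27 times that in WT. Irf3 to Tbk1 (1.12, 0.827 and 1.20 times) and Adar to Tbk1 (1.20, 0.906 and 1.13 times) were lower in KO at GO and higher at NGO and FGO.

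**Figure D3:**
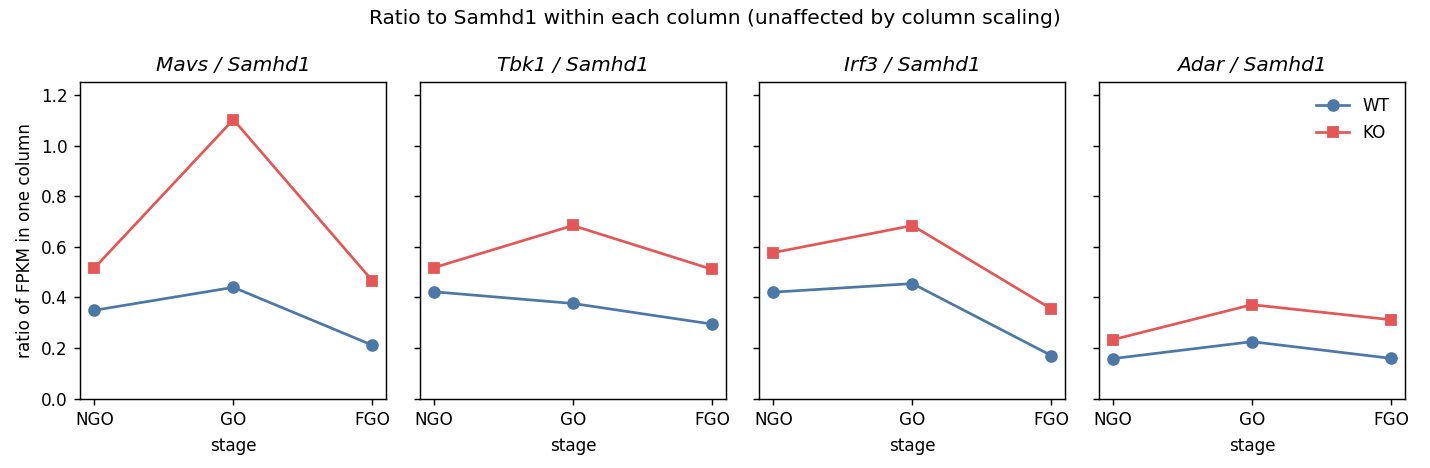
Ratio of the FPKM of Mavs, Tbk1, Irf3 and Adar to that of Samhd1 within the same column (vertical axis, no unit) at NGO, GO and FGO; WT is blue, KO red, and each point comes from 1 column and has no error. The KO line lies above the WT line in each panel, with the widest gap for Mavs at GO (1.10 against 0.440). This order follows from the denominator, since Samhd1 had the lowest KO to WT ratio of the compared set genes at each stage.

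The order of the levels also moved with stage. In WT NGO it was Samhd1, Tbk1, Irf3, Mavs and Adar, with Tbk1 (3.40 FPKM) and Irf3 (3.39 FPKM) nearly equal. WT GO had Samhd1, Irf3, Mavs, Tbk1 and Adar, and WT FGO had Samhd1, Tbk1, Mavs, Irf3 and Adar, an order shared with KO FGO. In KO GO, Tbk1 and Irf3 both stood at 10.2 FPKM. Without replicates it cannot be told which neighbours in these orders differ beyond their spread. By rank among all compared genes, Samhd1 lay between percentiles 63.3 and 71.4 in the 6 columns and Adar between 23.3 and 38.9. Mavs ranged more widely, from percentile 35.9 in WT FGO to 65.5 in KO GO.

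Around these genes part of the pathway had a mean of 1 FPKM or more. The 95 genes examined came from 6 lists (RNA sensors, DNA sensors, signal relay, transcription factors, clearance and editing, and interferon receptors with induced genes). Of the 95, 42 passed the mean of 1 FPKM, beside 10110 of all 25162 genes. At FGO 12 of the 42 were called higher in KO and 1 lower as deposited, against 25.8% and 0.158% of all genes, and after rescaling 0 were higher and 1 lower. The median of the 42 at FGO was 0.84 as deposited and 0.13 after rescaling, beside 0.72 and 0.02 over all genes. At NGO 1 of the 42 was called (Rnaset2a, lower), against 0.356% of all genes, and again 1 after rescaling, against 0.485%. The NGO median was -0.05, beside -0.11 over all genes. At GO 2 were called (Rela higher and Rnaset2a lower), against 2.98%, and 3 after rescaling with Optn higher, against 2.32%. The GO median was -0.07, beside -0.09 over all genes.

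Upstream of Tbk1, the DNA sensor list was uneven. Cgas, which makes the messenger cGAMP when it meets DNA, was at 2.33, 9.67 and 11.9 FPKM in WT and 1.94, 9.00 and 24.7 in KO. The Cgas differences were -0.18, -0.09 and 0.99, and after rescaling -0.07, -0.02 and 0.24. Its adaptor Sting1 was listed at 0 in 5 columns and at 0.0116 FPKM in KO NGO, and Aim2 at 0 in each. Banf1, a chromatin protein that keeps cGAS off nuclear DNA, was at 94.3 FPKM in FGO of WT and 128 of KO, a difference of 0.43 as deposited and -0.35 after rescaling. Of the RNA sensors, Oasl1, a member of the oligoadenylate synthetase family, was at 3.96 and 9.61 FPKM in FGO (1.10, and 0.38 after rescaling). Eif2ak2, the kinase PKR, did not exceed 0.0618 FPKM.

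The relay list held more compared genes, 14 of 20, beside 10110 of all 25162 genes. At FGO 6 of the 14 were called higher in KO as deposited, against 25.8% of all compared genes, and 0 after rescaling, against 1.68%. The list's median was 0.88 as deposited and 0.24 after rescaling, beside 0.72 and 0.02 over all genes. Ikbkb, a kinase of the NF-kB arm, was at 8.54 FPKM in FGO of WT and 28.3 of KO (1.62, and 0.84 after rescaling). Tomm70a, the mitochondrial import receptor that binds Mavs, was at 2.69 and 8.39 (1.35, and 0.63). Chuk, the partner kinase of Ikbkb, was at 6.08 and 14.8 (1.16, and 0.42), and Myd88, the adaptor of Toll-like receptors, at 6.61 and 14.6 (1.04, and 0.30). At GO Optn, an autophagy receptor that binds Tbk1, stood at 13.4 FPKM in the WT column against 27.8 in KO, a ratio of 2.07. On the log2(FPKM + 1) scale its difference was 0.998, just short of a call, and 1.06 after rescaling. Rnf135 and Traf3, ubiquitin ligases of the RIG-I to Tbk1 route, went the other way at GO, at 8.62 and 5.04 FPKM and at 7.95 and 4.90.

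Of the 10 transcription factors, 5 were compared. Rela, the NF-kB subunit p65, was at 5.32 FPKM in WT GO and 11.8 in KO GO (1.02, and 1.06 after rescaling), and at 5.46 and 17.1 in FGO (1.48, and 0.72). Irf1 was the most abundant factor of the list, at 121 FPKM in FGO of WT and 241 of KO (0.99, and 0.20). Irf8 stood at 8.33 and 11.2 FPKM in the FGO columns (0.38, and -0.31).

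Of the 12 compared genes of the clearance list, 3 were called higher and 1 lower at FGO as deposited, shares to be read against 25.8% and 0.158% of all genes. After rescaling 0 were higher and 1 lower, against 1.68% and 0.94%. The list's median was 0.68 (-0.05 after rescaling), beside 0.72 (0.02) over all genes. Pld3, a lysosomal exonuclease, was at 14.8 FPKM in FGO of WT and 44.4 of KO (1.52, and 0.74). Skiv2l, the helicase of the cytosolic RNA exosome, was at 1.70 and 6.82 (1.54, and 0.81), and Pnpt1, a mitochondrial RNA exonuclease, at 3.66 and 9.49 (1.17, and 0.45). The subunit Rnaseh2c of RNase H2, the enzyme that shares substrates with RNase H1, was at 13.0 and 9.17 FPKM at NGO, 19.4 and 12.7 at GO and 20.2 and 39.4 at FGO. Its differences were -0.46, -0.57 and 0.93, and after rescaling -0.31, -0.49 and 0.16. Rnaset2a was called lower at NGO, GO and FGO, at 13.0, 11.8 and 12.1 FPKM in WT and 2.10, 4.37 and 5.44 in KO. Rnaset2b and 2 further genes have near-identical transcripts, so the split of reads among these copies is uncertain. Rnaset2b was at 369 FPKM in FGO of WT and 502 of KO (0.44, and -0.34 after rescaling).

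Trex1, Samhd1, Adar and Ifih1 belong, with Lsm11 and the RNase H2 subunit genes Rnaseh2a, Rnaseh2b and Rnaseh2c, to the genes whose mutation causes the interferon disease Aicardi-Goutières syndrome in people. Of these 8 genes, 6 were at 1 FPKM or more in each of the 6 columns, and the others were Trex1 and Ifih1. Over the whole table, 10110 of 25162 genes had a mean of 1 FPKM or more. Among the 8, Lsm11 is a subunit of the U7 particle that processes histone RNA. It was at 1.59, 4.59 and 4.94 FPKM in WT NGO, GO and FGO and at 1.41, 2.73 and 6.62 in KO. As deposited, KO was thus lower at NGO and GO and higher at FGO, with log2 differences of -0.10, -0.58 and 0.36. After rescaling they were 0.01, -0.50 and -0.28, so that at NGO and FGO the direction depends on the scale.

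At the output end, interferon genes and the genes that interferon induces were mostly near 0 in WT and in KO. Of 25 such genes, 21 were under 1 FPKM in every column, the highest of them at 0.834 (Mx1, in KO FGO). Low levels were common in the whole table too, where 10110 of 25162 genes had a mean of 1 FPKM or more. The list had 8 genes at 0 in each column, among them Ifnb1, Isg15, Rsad2 and Cxcl10. The 4 that reached 1 FPKM somewhere were Bst2, Cmpk2, Dtx3l and Ifi27. Bst2, a membrane tether of viruses, was at 17.9, 36.6 and 37.3 FPKM in WT and 11.2, 23.7 and 48.7 in KO. Cmpk2, a mitochondrial nucleotide kinase, was at 3.01, 15.4 and 23.8 in WT and 2.43, 14.5 and 43.1 in KO. Their rescaled FGO differences were -0.39 and 0.06. Ifi27 was at 0.354 FPKM in FGO of WT and 1.42 of KO. The list's 6 compared genes, the receptor Ifnar1 and the kinases Jak1 and Tyk2 among them, had a median of 0.46 at FGO as deposited and -0.18 after rescaling. Over all genes the medians were 0.72 and 0.02. Of the 6, 0 were called on either scale, against 25.8% higher and 0.158% lower of all genes as deposited. After rescaling these shares of all genes were 1.68% and 0.94%.

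**Figure D4:**
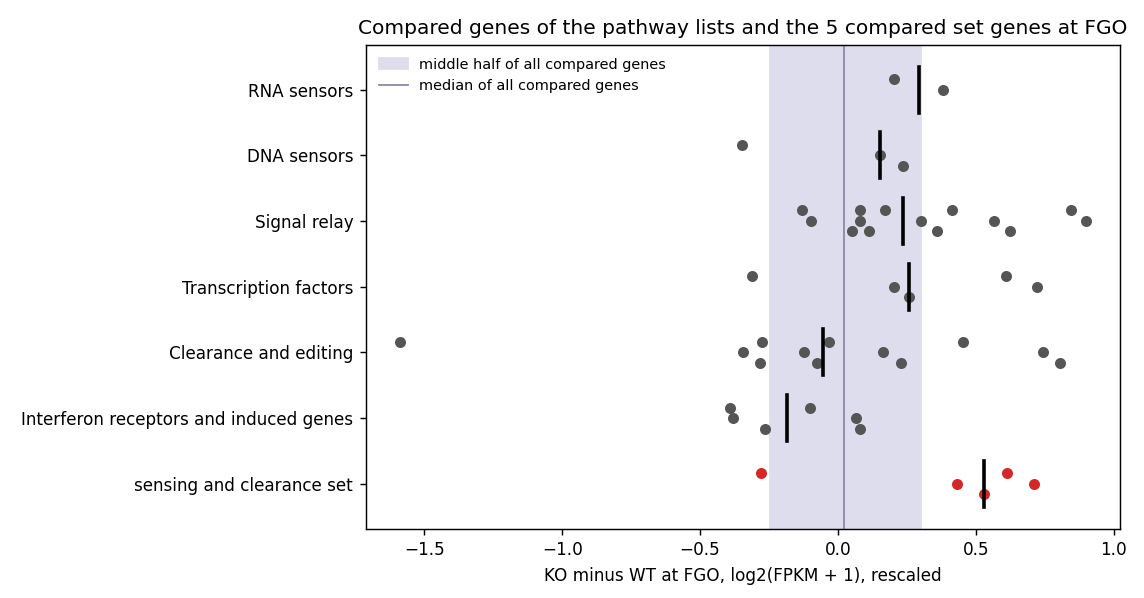
Rescaled KO minus WT difference at FGO (horizontal axis, log2(FPKM + 1)) of each compared gene in the 6 pathway lists (grey) and of the 5 compared genes described here (red); black bars are list medians, and the shaded band and thin line show the quartiles and median of all compared genes. The 4 red points at 0.43 to 0.71 lie right of the band and Samhd1 at -0.28 left of it, while the 6 compared genes of the list of interferon receptors, their kinases and induced genes have a median of -0.18.

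The genes whose profile over the 6 columns was most like each of the 5 were found by the root mean square difference of centred log2(FPKM + 1) values. For Mavs they were Cbx2, a Polycomb protein (0.10), Zfp94 (0.14) and Zfp964 (0.15). For Irf3 they were Cpne3, Adprh and Abcc10 (0.07 to 0.08), and for Tbk1 Zdhhc24, Heatr6 and Ccdc91 (0.04 to 0.05). Samhd1 was closest to Etf1 and Gspt1, the translation termination factors, and to Bbip1 (0.04 to 0.06). Etf1 stood at 3.26, 10.2 and 11.5 FPKM in WT and 2.59, 6.49 and 16.8 in KO, with the same lower KO values at NGO and GO as Samhd1. Adar was closest to Trim39 and Rpl7l1 (0.04) and to Ccdc91 (0.08). Within the set, Tbk1 and Adar were the most alike (0.10) and Mavs and Samhd1 the least (0.64).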

How the data were processed

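The values used are FPKM from the deposited table, adjusted by the authors to the ERCC spike-in as the file is named; neither the formula nor the gene annotation is stated in these sources. Per the labels' protocols, Smart-seq2 libraries came from 500 pg of cDNA and were read as 150 bp pairs. Per the submitters' processing notes, Trim Galore 0.6.7, HISAT2 2.2.1, Cufflinks 2.2.1 and mm10 were used. Whether a column is a mean, a pool or 1 sample is not given, and read depth is unknown.

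Of 25912 lines, 2 with spreadsheet error marks were left out, and of lines with a shared symbol the one with the largest mean was kept (0 of the 7 genes was affected). Genes averaging 1 FPKM or more were compared on log2(FPKM + 1). No test was possible with 1 column per group, so the planned linear models, replicate block and leaving out samples were not run. The genes and lists were chosen with earlier results of these data known. List genes were named by rescaled difference, up to 4 per list and stage, if the higher column reached 5 FPKM, besides relatives, overlapping genes, the 3 most similar profiles, and some genes picked after their values were seen (low or unlisted ones such as Sting1, Eif2ak2, Aim2, Lsm11, Rnaseh2c at FGO, Mx1, Ifi27 and the granulosa markers). Alternatives tried were the median-ratio scaling, a filter at a mean of 5 FPKM or none, 0.1 as pseudocount, equal column totals and summed repeated symbols. Positions and overlaps came from GENCODE M21, promoters from RefSeq on GRCm38.p6, and copies from blastn 2.17.0. Only the median-ratio scaling and its KO against WT calls were tested on simulated data, with as many genes raised as lowered. Calls on the deposited scale were not tested in this way. Python 3.11.15, numpy 2.4.6 and pandas 2.3.3 were used.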

Additional observations from a re-analysis of the deposited data

How the results depend on the processing

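No paired analysis was possible because the table has 1 column per genotype and stage, and for the same reason no sample could be left out. The number of the 5 genes called in KO against WT at FGO was 4 as deposited and 0 with the median-ratio scaling and with equal column totals. From NGO to GO the 5 calls in WT and the 5 in KO became 0 under both scalings. Of all genes, 54.8% in WT and 57.6% in KO were called higher in that step as deposited. With the median-ratio scaling 6.06% and 5.37% were. From GO to FGO the 1 call in KO became 0 under both scalings. Genes called higher in that KO step made up 39.0% as deposited and 6.42% with the median-ratio scaling. The 1 call in WT became 2 with equal totals, where Mavs joined Irf3 (-1.01). Genes called lower in that WT step made up 9.22% as deposited and 8.33% with the median-ratio scaling. Steps from NGO to GO that changed sign were those of Tbk1 in WT (1.11 as deposited, -0.0071 with the median-ratio scaling) and of Samhd1 in KO (1.11 as deposited, -0.19 with the median-ratio scaling and -0.19 with equal totals). Of the pathway lists, 13 genes were called at FGO as deposited, 1 under either scaling and 8 with a mean of at least 5 FPKM, where 25 genes were left to compare. Of all compared genes, 2628 were called at FGO as deposited, 265 with the median-ratio scaling and 286 with equal totals. With a pseudocount of 0.1 the number at NGO was 272 in place of 36, and at GO 670 in place of 301. With a mean of at least 5 FPKM Adar was not compared. The read depth limits all of these values by an unknown amount.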

Other observations

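Several genes of the pathway lists were nearly absent at NGO and reached 1 FPKM or more only at FGO. They were picked after their values were seen, and no test bears on them. Tlr3, the endosomal receptor for double-stranded RNA, was listed at 0, 0.491 and 1.99 FPKM in WT NGO, GO and FGO and at 0, 0.205 and 2.09 in KO. Dnase1l3, a secreted DNase, was at 0.119, 0.676 and 6.71 FPKM in WT and 0.0761, 0.420 and 9.20 in KO. Dtx3l, a ubiquitin ligase of the DNA damage response, was at 0.0118, 0.463 and 3.13 in WT and 0.0166, 0.254 and 4.13 in KO. The granulosa marker Cyp19a1 had a like course, at 0.0799, 0.684 and 6.16 FPKM in WT and 0.0321, 0.268 and 10.4 in KO, and its part in these values was not tested.

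The level of RIG-I relative to its adaptor was higher at each later stage in both genotypes. Ddx58 itself was low at NGO, at 0.588 FPKM in WT and 0.322 in KO. The Ddx58 to Mavs ratio within a column was 0.209, 0.359 and 1.61 in WT NGO, GO and FGO and 0.0981, 0.158 and 1.05 in KO. It was lower in KO at each stage, at 0.470, 0.441 and 0.654 times the WT ratio. These ratios do not depend on the column scale, and without replicates their error is unknown.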
